A study of Homo sapiens with 4 samples.

Results

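The genes described here encode the MAX and MLX network, a set of transcription factors of the bHLH-ZIP class. They are 10 of 20033 protein-coding genes, taken by name: the hub genes MAX, MLX and MGA, the MXD and MNT arm (MXD1, MXD3, MXD4, MXI1 and MNT), and the MLXIP arm (MLXIP and MLXIPL). A peak was given to a gene when its centre, (start+end)/2, lay in the gene or within 10 kb of it. The peaks record binding of USF1 in Huh7 cells, a hepatocellular carcinoma line in which USF1 was overexpressed. Chromatin was precipitated with an antibody to the FLAG tag (IP 1 and IP 2) and set against input chromatin of the same cells (input 1 and input 2). List 1 holds the peaks of IP 1 over input 1 and list 2 those of IP 2 over input 2. All 4 libraries therefore carry the overexpressed factor, and neither the IgG precipitate nor cells without the tagged protein were analysed here. The labels do not say whether replicates were separate cultures.

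MAX pairs with the MYC, MXD, MNT and MGA proteins, and the pairs bind the E-box CACGTG. MYC with MAX activates genes of growth, and the MXD proteins and MNT with MAX recruit SIN3 and histone deacetylases to repress them. MLX, a relative of MAX, pairs with MLXIP (MondoA) and MLXIPL (ChREBP, the glucose-responsive factor of liver) to activate genes of glucose and lipid metabolism, and also with some MXD proteins and MNT. USF1 is a bHLH-ZIP factor outside this network that recognises the same E-box.

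Kept IP tags numbered 47165647 in list 1 and 43942638 in list 2, and input tags 46345938 and 43562726. The lists differed in size (14300 and 27325 peaks) and in the false discovery rate (FDR) given by the caller, whose median was 100% in list 1 and 11.25% in list 2. Of list 1, 37.3% of peaks overlapped a list 2 peak, and of list 2, 19.6% overlapped a list 1 peak. Both values are given for every shared peak below, and folds, tag counts and FDRs are the authors' own.

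The sites at which both summits met an E-box are shown first, since they carry the strongest peaks with sequence at hand. Each is 30 bases of RefSeq sequence (GRCh38.p14), 5′ to 3′, with the E-box in capitals. The MLX site lies at chr17:42567038-42567067 on the plus strand, upstream of the gene. The MGA site lies at chr15:41621468-41621497 on the minus strand, inside MGA and in the promoter window of LOC105370791, a long non-coding RNA gene on the opposite strand. The third lies at chr5:177303732-177303761 on the plus strand, between the starts of RAB24 and PRELID1 and within 10 kb of MXD3.
MLX: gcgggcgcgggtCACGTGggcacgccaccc
MGA: gccagttcgggtCACGTGctggtcgcaagc
RAB24 and PRELID1: gggccgcaaggtCACGTGgcgcgggcgccg

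At MLX the E-box occupied positions 42567050 to 42567055 of chromosome 17. The list 1 summit stood 4 bp from it and the list 2 summit 2 bp. At MGA the E-box was at 41621480 to 41621485 of chromosome 15, with the list 1 summit 10 bp away and the list 2 summit on its edge base. Between RAB24 and PRELID1 it was at 177303744 to 177303749 of chromosome 5, with the list 1 summit 6 bp away and the list 2 summit inside it. In these 3 sites the base before the E-box is T on the strand shown.

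For contrast, MNT and MXD4 also hold an E-box before their starts, but the summits of their peaks stood elsewhere. The same 30 bases are from chr17:2401236-2401265 and chr4:2262330-2262359, both on the minus strand.
MNT: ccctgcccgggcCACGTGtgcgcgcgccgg
MXD4: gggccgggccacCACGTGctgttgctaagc

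At MNT the E-box at 2401248 to 2401253 was 250 bp from the nearer summit, that of list 1, and 732 bp from the summit of list 2. At MXD4 the E-box at 2262342 to 2262347 was 112 bp from the list 1 summit and 61 bp from that of list 2. In neither site is there a T before the E-box on either strand. The MLX promoter has 1 E-box in the 250 bases before its start (chr17:42566850-42567099, plus strand), shown whole because this is the hub whose own promoter window contains both summits.
MLX promoter: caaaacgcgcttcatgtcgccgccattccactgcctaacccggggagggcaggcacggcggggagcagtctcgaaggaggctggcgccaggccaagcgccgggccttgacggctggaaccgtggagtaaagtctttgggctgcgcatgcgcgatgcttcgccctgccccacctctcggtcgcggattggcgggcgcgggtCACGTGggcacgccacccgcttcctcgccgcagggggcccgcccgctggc

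All 10 members had an entry in the RefSeq promoter table, whose windows run from 250 bases before to 50 bases after each start. CACGTG, which reads the same on both strands, was found in the windows of MLX, MNT and MXD4, and the looser CANNTG (which includes CACGTG) in those of MGA, MXD1, MXD3, MXI1 and MLXIPL as well. The windows of MAX and MLXIP held neither. Across all 34943 windows, which overlap where a gene has neighbouring starts, 7.23% held CACGTG and 68.7% CANNTG. These are shares of single windows, whereas a member was counted if any of its windows matched. MAX has 2 windows, and MGA and MXI1 have 3 each, of which some hold no CANNTG. The counts of members can therefore not be read against these shares. The carbohydrate response element in its exact form, 2 copies of CACGTG with 5 bases between them, was in 2 of all windows and in none of the members'. The summits at MAX lay outside its windows, 19 bp (list 1) and 23 bp (list 2) beyond the nearer edge. Sequence under these summits was not read, so whether an E-box lies there is not known.

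Windows that held both summits of a shared peak numbered 1361, and 49.7% of them (95% Wilson interval 47.1 to 52.4%) held CACGTG. Where the fold was at least 8 in both lists the share was 95.2% (320 of 336; 92.4 to 97.0%), the class to which the windows of MLX, LOC105370791, RAB24 and PRELID1 belong. It was 8.18% for windows with a list 1 summit only, 12.6% with a list 2 summit only and 4.83% with no summit. In windows with shared summits and an E-box, the median distance from the E-box centre was 15.5 bp for list 1 and 14.5 bp for list 2, and 9.5 bp for both at a fold of at least 8. The MLX summits are among the nearer ones. The windows of MXD4 and MNT do not hold both summits of a shared peak, so these medians do not cover them. Distances given above for single sites are from the edge of the E-box.

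**Figure D1:**
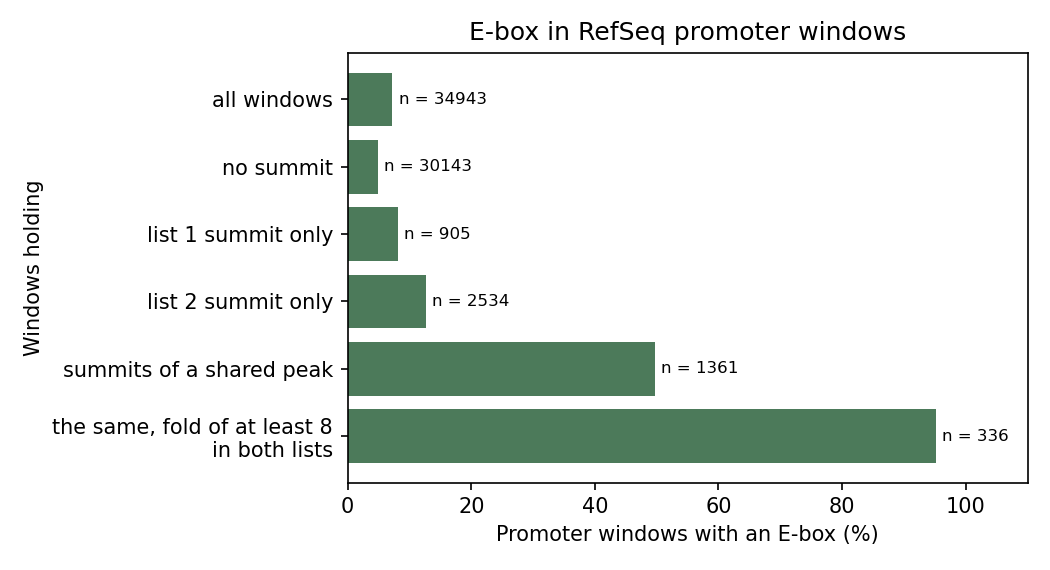
Share of RefSeq promoter windows that hold an E-box (horizontal axis, percent), by which peak summits lie in the window (vertical axis), with the number of windows beside each bar. The share is 7.23% over all windows, 49.7% with both summits of a shared peak and 95.2% where the fold is also at least 8 in both lists.

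The base before the E-box was compared because the member sites differed in it, so the split was chosen after the values were seen. Among windows with a single CACGTG, 1110 had a T before it on at least 1 strand, and 448 of these (40.4%) held both summits of a shared peak. Of the 1185 without such a T, 99 did (8.35%). Shared peaks of at least 8-fold in both lists were in 208 (18.7%) of the former and 9 (0.759%) of the latter. With GT before the E-box on at least 1 strand, 379 of 690 windows (54.9%) held both summits. The MLX window is in the T class, and those of MNT and MXD4 are in the other. Windows that overlap share sequence and peaks, so these are descriptions.

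Shared peaks were found at 6 of the 10 members: MAX, MLX, MGA, MXD3, MXD4 and MNT. Over all protein-coding genes 21.6% had one, or 26.4% of genes over 50 kb and 19.4% of shorter ones. All 3 hubs had a shared peak, as did 3 of the 5 genes of the MXD and MNT arm and 0 of the 2 of the MLXIP arm. List 1 peaks were found at 7 members (background 32.7%), list 2 peaks at 8 (background 56.8%) and a peak of either list at the same 8 (background 61.8%). Taking list 1 by itself, peak centres lay inside the gene body at 4 members (background 17.9%), folds of at least 8 were found at 4 (background 6.91%) and an FDR of at most 5% at 3 (background 1.88%). Taking list 2 by itself, folds of at least 8 were found at 5 (background 12.6%). An FDR of at most 5% in list 2 was found at 7: the hubs with MXD1, MXD3, MXD4 and MNT. The share of all genes at that list 2 limit was not computed. With both folds at least 8, 4 members remained (MAX, MLX, MGA and MXD3; background 4.36%). With the FDR limited to 5% in each list the 3 hubs remained (background 1.83%), and with p limited to 1e-10 MAX, MLX, MGA and MNT (background 8.38%). Centres of a shared peak lay inside the gene body at MGA and MNT (2 members, background 9.08%), and both summits stood within 1 kb of a RefSeq start at MAX, MLX, MGA, MXD4 and MNT (5 members, background 9.96%). The members were picked with such results known, so these shares describe the list and are no test of it.

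The members had 16 peaks in list 1 and 20 in list 2. Hubs had 6 and 9, the MXD and MNT arm 10 and 11, and the MLXIP arm 0 and 0. Of the list 1 peaks, 5 of 6 at hubs and 6 of 10 at the MXD and MNT arm were shared, against 37.3% of all list 1 peaks. The same numbers of list 2 peaks were shared, out of 9 at hubs and 11 at the arm, against 19.6% of all list 2 peaks. Hubs and arm thus differed in list 1 and were alike in list 2. In the 5 overlapping pairs at hubs the lower of both folds ran from 4.65 to 15.24 with a median of 10.42. MGA alone gave 3 of these pairs (10.42, 8.33 and 4.65), so the hub median is the value of its first peak. In the 7 pairs of the MXD and MNT arm it ran from 3.6 to 9.47 with a median of 5.15. These pairs are not independent, since 1 list 1 peak and 1 list 2 peak of MNT each entered 2 of them. The lower fold of 5.15 comes from that list 1 peak. Over all 5377 overlapping pairs the median was 5.76. The ranges overlap, since the weakest hub pair was below the strongest arm pair.

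**Figure D2:**
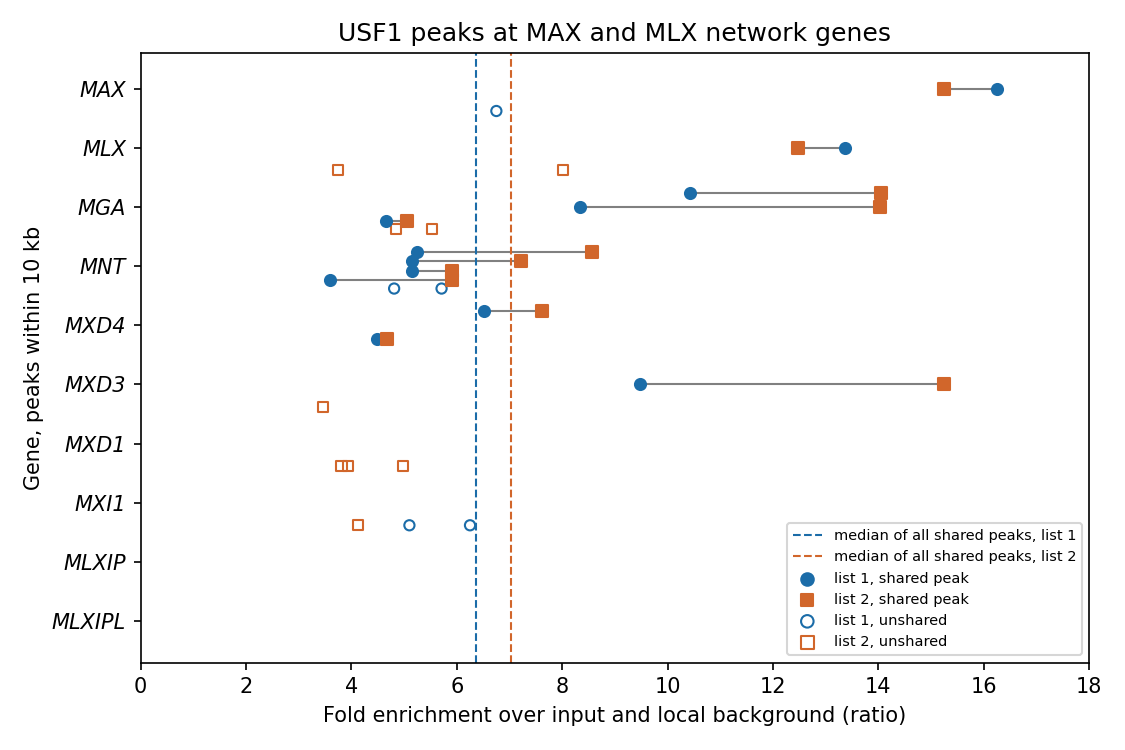
Fold enrichment (horizontal axis, ratio) of every peak within 10 kb of each member (vertical axis); filled symbols joined by a line are shared peaks, open symbols are peaks of 1 list, and dashed lines are the median folds of all shared peaks (6.37 in list 1 and 7.03 in list 2). The strongest peaks of MAX, MLX and MGA stand right of both lines, as does the MXD3 pair (9.47 and 15.24). The stronger MXD4 pair (6.52 and 7.62) is above the median of each list, and MLXIP and MLXIPL have no peak.

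MAX, the common partner of the network, is a gene of 96595 bp on the minus strand of chromosome 14 (65006101 to 65102695). Its shared peak held 128 IP tags in list 1 (95% Poisson interval 107 to 152) and 125 in list 2 (104 to 149). The folds were 16.25 and 15.24 and the FDRs 2.33% and 0.29%. Both counts and both folds lay close together. Of all overlapping pairs, 1.6% had a lower fold of at least 15.24. The peak spanned 65102089 to 65103315 in list 1 (1227 bp) and 65101892 to 65103472 in list 2 (1581 bp), and the list 1 peak lay wholly inside the list 2 peak.

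The MAX summits lay 4 bp apart, at 65102552 and 65102556. They were 269 and 273 bp upstream of the nearest RefSeq start and within the outermost part of the annotated gene. Over all pairs the median gap between summits was 38 bp, and 17.9% had a gap of 10 bp or less. A further list 1 peak inside MAX (65064925 to 65065727) had 41 tags and a fold of 6.75, with an FDR of 94.73% and no list 2 counterpart.

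MLX, the partner of the Mondo proteins, is a gene of 6104 bp on the plus strand of chromosome 17 (42567100 to 42573203). Its shared peak held 110 tags in list 1 (90.4 to 133) and 143 in list 2 (121 to 168), with folds of 13.36 and 12.47 and FDRs of 3.92% and 0.18%. The tag count was higher in list 2 and the fold in list 1, and the Poisson intervals of the counts overlapped. Widths were 1030 and 1302 bp, and the summits were 2 bp apart, 41 and 43 bp upstream of the start. The far end of COASY, which encodes coenzyme A synthase, also lay within 1 kb of the summits. List 2 had 2 further peaks near MLX, neither in list 1: one at the start of COASY (55 tags, 3.74-fold) and one at PSMC3IP (44 tags, 8.01-fold).

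MGA is the largest protein of the network, with a T-box and a bHLH-ZIP domain, and forms part of a Polycomb complex. The gene spans 148717 bp on the plus strand of chromosome 15 (41621224 to 41769940). At its outermost start the peak held 253 tags in list 1 (223 to 286) and 326 in list 2 (292 to 363). These counts were higher than those of any other member peak, at percentiles of 99.1 and 99.2 of their lists. Per kilobase of peak they came to 161 and 165 tags, against 104 and 79.1 at MAX and 107 and 110 at MLX.

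The folds of this MGA peak were 10.42 and 14.04 with FDRs of 0 in both lists. Widths were 1575 and 1974 bp. The summits were 10 bp apart, 271 and 261 bp downstream of the start. MGA and MNT were the 2 members with 3 shared list 1 peaks, and 118 of all genes (0.589%) had at least 3. Among genes of 50 kb or less the share was 0.145%, so it was higher among longer genes such as MGA.

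A shared peak inside MGA, at 41661451 to 41662285 in list 1, lay 1155 and 1147 bp downstream of the innermost listed start. It held 71 and 106 tags with folds of 8.33 and 14.03 and FDRs of 36.31% and 0.28%. Its fold was thus as high as that of the first peak in list 2 and lower in list 1. Between them, list 2 alone had a peak at the inner starts (41659796 to 41661092) with 89 tags and a fold of 4.84. The third shared peak lay past the far end of MGA, at the start of MAPKBP1, which encodes a scaffold of JNK signalling, and had the lowest folds of the 5 shared pairs at hubs (74 and 80 tags, 4.65-fold and 5.06-fold). List 2 also had a peak of 34 tags and 5.53-fold deeper in the gene.

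**Figure D3:**
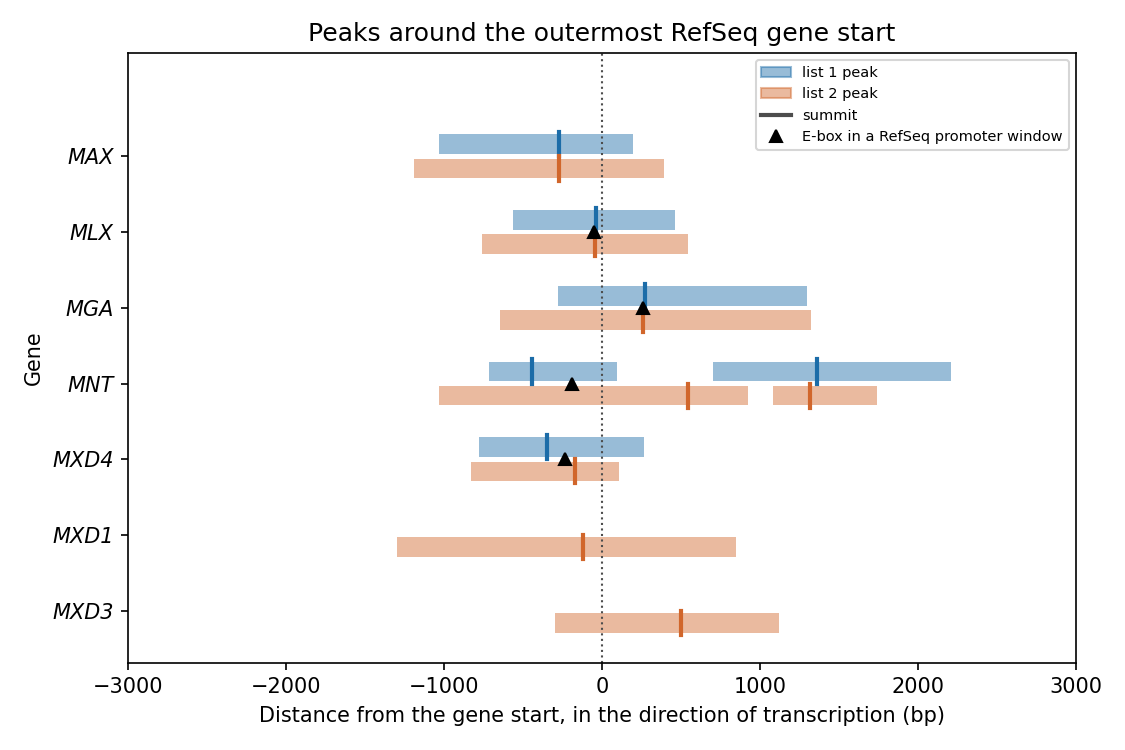
Peaks around the outermost RefSeq start of MAX, MLX, MGA, MNT, MXD4, MXD1 and MXD3 (vertical axis). The horizontal axis is in bp in the direction of transcription, with list 1 above list 2. Vertical ticks are summits and triangles are E-boxes in RefSeq promoter windows. MXI1, MLXIP and MLXIPL are not drawn. Summits of the 2 lists lie 4, 2 and 10 bp apart in the first peaks of MAX, MLX and MGA, 178 bp apart at the MXD4 start, and 38, 814 and 987 bp apart in the 3 pairs around the MNT start.

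MNT, a repressor that pairs with MAX or MLX, had the most list 1 peaks of any member: 5 in list 1 and 3 in list 2 around a gene of 16988 bp on chromosome 17 (2384073 to 2401060, minus strand). The folds were low to moderate. The strongest shared peak lay inside the gene, 8256 and 8237 bp downstream of the start, with 66 and 72 tags, folds of 5.25 and 8.57 and summits 19 bp apart. Of genes of 50 kb or less, 0.145% had at least 3 shared list 1 peaks. The count at MNT rests on overlaps of at least 1 bp. Its list 1 peak across the start met only a list 2 peak that also touched another list 1 peak, with summits 987 bp apart.

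Around the MNT start the lists divided the signal differently. List 1 had a peak at 2398853 to 2400355 (101 tags, 5.15-fold) and another at 2400965 to 2401776 (43 tags, 3.6-fold). List 2 had peaks at 2399321 to 2399975 (36 tags, 7.22-fold) and at 2400138 to 2402094 (94 tags, 5.9-fold), and the latter touched both of those in list 1. The pair across the start had summits 987 bp apart, 443 bp upstream in list 1 and 544 bp downstream in list 2. All list 1 FDRs at MNT were between 49.21% and 100%, and those of list 2 between 0.61% and 9.82%. The other 2 list 1 peaks (4.81-fold and 5.71-fold) had no list 2 counterpart.

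MXD4, an MXD repressor, is a gene of 14678 bp on the minus strand of chromosome 4 (2247432 to 2262109). The peak at its start had 60 and 75 tags and folds of 4.48 and 4.68, with list 1 FDR 100% and list 2 FDR 2.21%. Both folds were near each other and under the median of shared peaks, and 79.2% of all pairs had a lower fold at least as high. The summits were 178 bp apart, 350 and 172 bp upstream of the start. A second shared peak lay past the far end of MXD4, at the common start of POLN and HAUS3, which encode DNA polymerase nu and a subunit of the augmin complex. It had 51 and 36 tags and folds of 6.52 and 7.62.

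The shared peak within 10 kb of MXD3 had the highest folds of the MXD and MNT arm, but it lay past the far end of the gene. MXD3, an MXD repressor found in dividing cells, is on the minus strand of chromosome 5 (177305499 to 177312752). The peak centre was 1763 bp outside it in list 1 and 1624.5 bp in list 2, and the summits were 9014 and 9005 bp from its start. They lay at the facing starts of RAB24, a small GTPase linked to autophagy, and PRELID1, a mitochondrial lipid carrier. The peak held 71 tags in list 1 (55.5 to 89.6) and 149 in list 2 (126 to 175), with folds of 9.47 and 15.24, FDRs of 88.37% and 0.25% and summits 9 bp apart. The Poisson intervals did not overlap, which was also so for the first MGA peak and for pairs around the MNT start. The list 2 peak was wider (1760 against 865 bp). At the start of MXD3 itself, list 2 alone had a peak (88 tags, 3.46-fold).

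MXD1, an MXD repressor that rises as cells differentiate, had no list 1 peak within 10 kb and 3 in list 2. The one at its start (69913814 to 69915960 of chromosome 2) held 179 tags over 2147 bp, at the 96.4 percentile of tags in list 2. Its fold of 3.81 was at the 9.52 percentile. The summit was 121 bp upstream of the start. MXI1, a further MXD protein, had 2 weak list 1 peaks inside the gene (25 tags at 5.1-fold and 42 tags at 6.25-fold), both with an FDR of 100%. In list 2 it had a single peak 1142 bp downstream of a start (79 tags, 4.13-fold), which overlapped neither.

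The closest shared peak to MXI1 was outside the 10 kb, 17679 bp past its end, at SMNDC1, which encodes a splicing factor. It held 97 and 170 tags with folds of 4.95 and 17.14 and summits 32 bp apart. Within 25 kb of the gene MXI1 would therefore count as a member with a shared peak (7 of 10; background 28.5%).

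MLXIP and MLXIPL, the glucose-sensing partners of MLX, had no peak in either list in the gene or within 10 kb. MLXIP spans 68589 bp of chromosome 12 and MLXIPL 54706 bp of chromosome 7. Of genes over 50 kb, 21.8% had no peak in either list. The nearest peak to MLXIP stood 78873 bp off in list 1, 78889.5 bp off in list 2, and was shared (6.08-fold and 4.86-fold). For MLXIPL it stood at BCL7B in list 1 (35627 bp, 3.31-fold) and at TBL2 in list 2 (14688.5 bp, 4.66-fold). An absent peak means that none passed the caller's p of 1e-05, and gives no upper limit on binding.

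**Figure D4:**
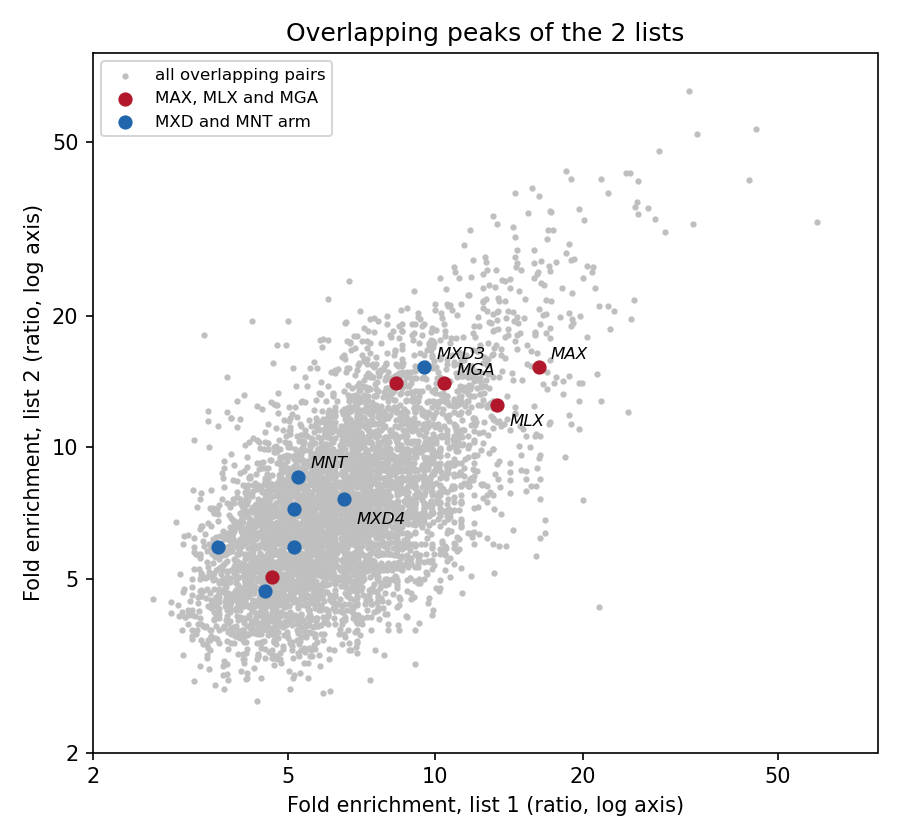
Fold enrichment in list 1 (horizontal) against list 2 (vertical), both as ratios on log axes, for all 5377 overlapping pairs in grey, with pairs at MAX, MLX and MGA in red and at the MXD and MNT arm in blue; a gene name marks its strongest pair. MAX and MLX had the higher fold in list 1, and the strongest pairs of MGA, MXD3, MXD4 and MNT in list 2.

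The extent of overlap differed between members. In the first peak of each hub 100% of the list 1 peak lay under the list 2 peak, and the list 2 peak was covered to 77.6% at MAX, 79.1% at MLX and 79.8% at MGA. At MXD4 the start peaks covered 84.7% and 94.2% of each other. At MXD3 100% of the list 1 peak and 49.1% of the list 2 peak were covered, and for the pair across the MNT start 100% and 41.5%. Summit gaps at hubs ran from 2 to 58 bp with a median of 8 bp, and 3 of these pairs were at MGA, the median one among them. In the MXD and MNT arm the gaps ran from 9 to 987 bp with a median of 43 bp. The gaps of 814 and 987 bp in that arm both involve the same MNT list 2 peak, so the arm's range and median rest partly on a peak counted more than once. The MXD3 pair, with a gap of 9 bp, lies within the range of the hubs. Summits at the hubs' first peaks stood between 34.9% and 55.1% of the way along the peak.

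Tag count and fold did not rank the members alike. By tags in both lists, the shared gene-end peak closest to that of MLX was at AGPAT2, an acyltransferase of lipid synthesis. It held the same 110 and 143 tags, at folds of 4.49 and 4.62. For MAX it was RAB40C, with 129 and 126 tags and folds of 5.29 and 5.71. For MGA it was MCOLN1, a lysosomal cation channel, with 253 and 323 tags and folds of 25.96 and 40.65. Equal tag counts thus came with lower folds than those of MLX and MAX and with higher folds than that of MGA. For MXD3 the peak compared was the one between RAB24 and PRELID1 (71 and 149 tags), and the closest was at SLC25A37 (72 and 150 tags, 5.74-fold and 4.54-fold). For MXD4 it was the one at POLN and HAUS3 (51 and 36 tags), and the closest was at JAG1 (47 and 35 tags, 5.29-fold and 5.11-fold). For MNT it was the one inside the gene (66 and 72 tags), and the closest was at RAB6A (65 and 72 tags, 6.84-fold and 4.93-fold). Likeness was the distance in log2 tags over the 2 lists.

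Among 32 partner, cofactor and target genes of the network, 8 had a shared peak, or 25%, against a background of 21.6%. The MYC genes had 0 of 3: MYC and MYCN had no peak within 10 kb in either list, and MYCL one in list 2 alone (61 tags, 3.3-fold) at its start. SIN3 and NCOR corepressors had 2 of 6, the MGA complex 2 of 11, coactivators of MYC 1 of 4 and targets of MLX 3 of 8. With both folds at least 8, KAT5 and YAF2 remained (2 of 32, or 6.25%, against a background of 4.36%). KAT5, the TIP60 acetyltransferase that MYC recruits, had 495 and 584 tags and folds of 14.94 and 25.5, with a list 1 summit 264 bp upstream of its start.

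YAF2, a subunit of the Polycomb complex that holds MGA, had 137 and 199 tags, folds of 10.23 and 16.08 and summits 2 bp apart. HDAC1, a deacetylase of the SIN3 complex, had 63 and 75 tags (6.05-fold and 6.14-fold). SIN3A, the scaffold that the MXD proteins bind, had 4.63-fold and 5.92-fold. CBX3 shared a start region with HNRNPA2B1 (4.22-fold and 3.96-fold). Of the MLX targets, ARRDC4, an arrestin-domain gene induced by glucose, had 7.5-fold and 5.12-fold, the fatty acid synthase gene FASN 5.9-fold and 6.24-fold, and KLF10 6.77-fold and 7.73-fold. TXNIP, PKLR and TKFC, 3 of the 8 MLX targets, had a peak in list 2 alone. With these, 6 of the 8 had a list 2 peak, against a background of 56.8% of all genes.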

How the data were processed

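Chromatin bound by USF1 was compared with input in Huh7 cells, as 2 peak lists. MACS 1.4.2 was run on uniquely mapped reads at a p cutoff of 1e-05, per the file headers, with at most 1 tag kept per position, the larger library scaled to the smaller, and replicates not pooled. The submitters' processing notes list Bowtie2, deepTools, HOMER and GRCh38 without their roles. The authors deposited, per peak, the count of IP tags (not scaled to depth), a ratio (fold of IP over the expected tags at the summit), a score (minus 10 times log10 of the caller's p), a false discovery rate in percent, the width and the summit.

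Assignment of peaks used pandas 2.3.3, numpy 2.4.6 and scipy 1.17.1 under Python 3.11.15, and matplotlib 3.10.9 drew the figures. A shared peak had at least 1 bp in common with a peak of the other list, with both centres in the gene or within 10 kb of it. Gene spans (20033 protein-coding genes), gene starts and promoter sequence came from RefSeq tables of GRCh38.p14; all 10 members and all 32 partner genes matched. Assignment was checked on simulated peaks. No test was made: each library pair gave 1 list. Tag intervals are exact Poisson intervals at 95% and share intervals are Wilson intervals at 95%. Both cover counting error only.

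The members and lists were chosen with earlier results of these data known. The rule for naming genes took all members, genes with an end within 1 kb of a shared member summit, for each member the gene whose shared gene-end peak had the most similar tag counts, and up to 10 partner genes with a shared peak. Genes outside it (PSMC3IP, SMNDC1, BCL7B, TBL2, HNRNPA2B1, LOC105370791, MYC, MYCN, MYCL, TXNIP, PKLR and TKFC) were named after their values were seen. Alternatives changed the distance, overlap, threshold, list and gene assignment.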

Additional observations from a re-analysis of the deposited data

How the results depend on the processing

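The number of members with a shared peak (6) was 2 inside gene bodies alone (background 9.08%) and 3 with the FDR limited to 5% in each list (background 1.83%). The hubs kept 3 of 3 under every alternative except gene bodies alone, where MGA was the 1 that remained, since the peak centres of MAX (list 1) and MLX lie just outside the genes. Under the alternatives other than gene bodies, the share of all genes ran from 1.83% to 56.8%. The MXD and MNT arm (3) had 1 in gene bodies (background 9.08%), 1 at a fold of at least 8 (background 4.36%) and 1 at a p of at most 1e-10 (background 8.38%). It had 0 at an FDR of at most 5% (background 1.83%). In single lists it had 5 in list 2 (without replicate 1, background 56.8%) and 4 in list 1 (without replicate 2, background 32.7%). The MLXIP arm had 0 in every shared-peak setting and in each single list at 10 kb, but within 25 kb MLXIPL had a list 2 peak. Of the 32 partner genes, 8 of which had a shared peak, there were 3 in gene bodies (9.38%, background 9.08%), 2 at a fold of at least 8 (6.25%, background 4.36%), 4 at a p of at most 1e-10 (12.5%, background 8.38%), 2 at an FDR of at most 5% (6.25%, background 1.83%), 21 in list 2 (65.6%, background 56.8%) and 10 in list 1 (31.2%, background 32.7%). Members with a list 1 peak (7) were 4 in gene bodies (background 17.9%), 4 at a fold of at least 8 (background 6.91%) and 3 at an FDR of at most 5% (background 1.88%). Members with a list 2 peak (8) were 5 at a fold of at least 8 (background 12.6%) and 7 at an FDR of at most 5% (background not computed). MXD3 was lost within 1 kb, with an overlap of 50% of both peaks and with nearest-gene counting. The share of promoter windows with CACGTG was 25.6% for all list 2 summits and 33.1% for all list 1 summits. The rule on gene starts, the length classes and the E-box comparisons by summit and by neighbouring base were added after the values had been seen. No paired analysis was possible because IP and input of 1 number are already combined into a single list, without input tags per peak. Depth was alike in the IPs, and an unshared peak may lie under the threshold in the other list.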
